A study of Mus musculus with 36 samples.

Results

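The genes described here are 37 listed enzymes, transporters and regulators of glycolysis and of the tricarboxylic acid (TCA) cycle in mouse BV-2 cells, an immortalised microglial line. They were taken as the rows of the deposited tables whose symbol equals a listed symbol. All 37 symbols were found, in 38 rows of 19879 genes, because 2 adjacent Ensembl genes carry the symbol Aldoa. By role they were 1 glucose transporter, 8 genes of upper glycolysis from hexokinase to aldolase, 6 of lower glycolysis, 4 of lactate formation and transport, 4 of pyruvate entry into the mitochondrion, 13 of the TCA cycle and 1 regulator, Hif1a.

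RNA was sequenced from 36 libraries in 12 groups of 3. Wild-type BV-2 cells received 1 of 6 treatments for 4 or 24 h. Vehicle treatments without lipopolysaccharide were dimethyl sulfoxide (DMSO) and ethanol (EtOH), each at 0.2%. The other 4 treatments contained lipopolysaccharide (LPS) at 600 ng/ml, either alone or with 1 drug. The drugs were the fumarate esters DMF (dimethyl fumarate) and MMF (monomethyl fumarate), at 30 µM each and dissolved in DMSO, and cannabidiol (CBD), at 6 µM and dissolved in EtOH. The labels do not say which vehicle the cells given LPS alone received, so a drug and its vehicle cannot be told apart in the comparisons with LPS alone. In all groups the serum of the high-glucose medium was lowered to 0.1% immediately before treatment. All libraries come from this single cell line, from 3 repeats of the experiment.

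Glycolysis turns glucose into pyruvate in the cytosol. Lactate dehydrogenase then reduces pyruvate to lactate, or the pyruvate dehydrogenase complex feeds it into the TCA cycle in the mitochondrion, a step that the kinase encoded by Pdk1 holds back by phosphorylating the complex. Hif1a encodes the oxygen-regulated subunit of hypoxia-inducible factor 1 (HIF-1), which binds the core ACGTG or GCGTG and drives many glycolytic genes. Macrophages and microglia given LPS are known for a shift towards glycolysis. Fumarate is itself a TCA intermediate, hydrated to malate by fumarase (Fh1), and fumarate esters are known to modify cysteines of proteins, among them Gapdh.

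The libraries held 14110424 to 26676607 counted reads. All 11 markers of microglia and macrophages had a median normalized count of at least 10, with a summed level of 25748 to 45876 per library. The 4 neuronal markers summed to at most 6.27, the 4 fibroblast markers to at most 16.2 and the 4 astrocyte markers to at most 28.2. Of the oligodendrocyte markers Mbp passed that level (658 to 1508), while Mog and Olig2 were at 0 reads in 34 and 35 libraries. Of the 4 endothelial markers 3 passed (summed level 61.3 to 182), while Cldn5 was at 0 in 34 libraries. In bulk RNA, fewer cells of a kind and less RNA per cell cannot be told apart. Every level below is a normalized count (reads divided by a size factor) on 1 scale for all 36 libraries, given in the order of the replicate numbers. Every log2 fold change comes from limma on the deposited table of that pair of groups, on the log2(normalized count + 1) scale, and stands with its standard error (SE). A gene was called changed at a Benjamini-Hochberg adjusted p below 0.05 over all genes tested. Each group had 3 libraries.

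The upstream sequences of 6 members on which the results turn are shown, from glucose uptake to the TCA cycle. Each line gives the 250 bases before the first RefSeq start of the gene, 5′ to 3′ on the strand of the gene, with every HIF core (ACGTG or GCGTG on either strand) in capitals.
Slc2a1: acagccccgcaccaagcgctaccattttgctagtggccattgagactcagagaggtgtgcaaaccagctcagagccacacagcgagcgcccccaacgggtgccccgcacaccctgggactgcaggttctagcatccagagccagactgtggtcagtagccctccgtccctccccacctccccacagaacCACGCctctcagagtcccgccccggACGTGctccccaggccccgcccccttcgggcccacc
Gpi1: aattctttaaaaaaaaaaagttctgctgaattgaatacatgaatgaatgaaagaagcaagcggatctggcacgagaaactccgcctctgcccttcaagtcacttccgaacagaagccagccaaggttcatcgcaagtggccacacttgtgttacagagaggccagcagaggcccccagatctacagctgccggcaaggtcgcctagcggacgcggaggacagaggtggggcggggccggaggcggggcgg
Pfkl: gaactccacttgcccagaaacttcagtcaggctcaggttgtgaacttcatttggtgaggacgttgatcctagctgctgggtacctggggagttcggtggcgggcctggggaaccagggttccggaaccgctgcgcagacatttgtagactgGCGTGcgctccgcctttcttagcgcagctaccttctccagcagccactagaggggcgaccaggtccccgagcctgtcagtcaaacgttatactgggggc
Ldha: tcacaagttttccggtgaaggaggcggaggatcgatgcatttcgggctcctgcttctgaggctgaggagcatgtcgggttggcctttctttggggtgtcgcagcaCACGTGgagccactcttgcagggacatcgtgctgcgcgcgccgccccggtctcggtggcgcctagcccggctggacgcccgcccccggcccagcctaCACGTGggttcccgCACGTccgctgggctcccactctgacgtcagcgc
Pdk1: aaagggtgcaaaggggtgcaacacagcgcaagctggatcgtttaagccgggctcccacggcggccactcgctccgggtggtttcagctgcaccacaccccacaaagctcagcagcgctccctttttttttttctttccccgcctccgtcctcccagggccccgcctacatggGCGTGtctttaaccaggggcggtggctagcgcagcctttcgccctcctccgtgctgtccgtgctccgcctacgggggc
Fh1: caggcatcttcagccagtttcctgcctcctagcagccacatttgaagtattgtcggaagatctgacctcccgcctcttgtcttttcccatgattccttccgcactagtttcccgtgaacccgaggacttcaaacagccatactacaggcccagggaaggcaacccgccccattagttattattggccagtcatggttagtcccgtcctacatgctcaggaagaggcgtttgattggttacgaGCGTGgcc
In build GRCm38.p6 these stretches are chr4:119108495-119108744, chr7:46845554-46845803 and chr2:71872974-71873223 on the plus strand and chr7:34230337-34230586, chr10:78009808-78010057 and chr1:175625636-175625885 on the minus strand. Slc2a1 held 2 matches, and Pfkl, Pdk1 and Fh1 held 1 each. Ldha held 5, of which 4 came from 2 copies of CACGTG, the E-box, which contains the HIF core on both strands. Gpi1 held none in these letters.

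Of the 37 symbols, 36 were in the RefSeq promoter table. Over windows from 250 bases before to 50 bases after a start, 29 of the 36 (80.6%) held at least 1 HIF core, against 46.7% of all 27025 genes. Some genes have several starts, and over single windows the shares were 77.4% of 53 for the members and 43.8% of all 32851. The E-box CACGTG was in 6 of 36 members (16.7%) and in 8.09% of all genes. The antioxidant response element TGACNNNGC, searched on both strands, was in 8 of 36 (22.2%) and in 14.0% of all genes. Over single windows the shares for this element lay closer, at 15.1% for the members and 12.4% for all. For the E-box they were 15.1% and 7.15%. The shares were adjusted neither for base composition nor for expression in these cells. A match describes letters and not binding.

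The highest levels per length were those of glycolysis and lactate genes. Per kilobase of the canonical transcript, averaged over the 12 groups, Pkm (pyruvate kinase) had a mean normalized count of 49473, Ldha (lactate dehydrogenase A) 37267, Aldoa (aldolase A) 27118 and Pgk1 (phosphoglycerate kinase) 23836. The highest TCA member was Mdh2, mitochondrial malate dehydrogenase, with 4866 per kilobase. The glucose transporter Slc2a1 stood at 2569, and the phosphofructokinase genes Pfkl, Pfkp and Pfkm at 1573, 1532 and 200.95. Ldhb, the other common lactate dehydrogenase subunit, had 0 reads in 34 libraries and 1 read in each of the other two, under the floor of 3 counts, and was tested nowhere.

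The counts of some members are uncertain. Gapdh had only 1976 to 5561 reads per library, and the annotation lists 84 near-identical copies of its coding sequence, 74 of them pseudogenes. These copies held 0.709% as many reads as Gapdh itself. Its level may depend on how reads with several matches were treated, which was not tested. Copies of Eno1 (enolase) held 19.1% as many reads as Eno1 itself. The second Aldoa row (ENSMUSG00000114515) had 27 to 118 reads, against 28205 to 84450 in the main row, and in a later annotation its exons cover 86.1% of the main transcript. In that later annotation 10 members share over 10% of their canonical transcript with another counted gene. For Aldoa this gene lies on the same strand, and for the other 9, among them Gapdh, Pfkl, Pfkp, Slc16a3 and Idh3a, on the opposite strand. As the deposited tables place them, the Aldoa rows do not overlap: the main row ends at base 126399923 and the second starts at 126399962. The strand setting of the counting is not given in the sources used here, so reads of the opposite-strand pairs may be mixed.

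The members together took 1.72% to 3.73% of the counted reads of a library. At 4 h the group means ran from 2.56% ± 0.224 (SD, n = 3) in EtOH to 2.84% ± 0.122 in LPS+MMF. At 24 h the share was 3.58% ± 0.148 in DMSO and 3.62% ± 0.177 in EtOH, and every library of these groups lay above all others. It was 2.97% ± 0.0484 in LPS, 3.04% ± 0.0739 in LPS+MMF, 2.78% ± 0.0446 in LPS+DMF and 2.06% ± 0.292 in LPS+CBD, where all 3 libraries lay below all others. Glycolysis and lactate genes made up most of it, with 3.30% of reads in EtOH and 1.77% in LPS+CBD at 24 h. Pyruvate entry and TCA genes held 0.310% and 0.264%. These shares are a description and were not tested.

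**Figure D1:**
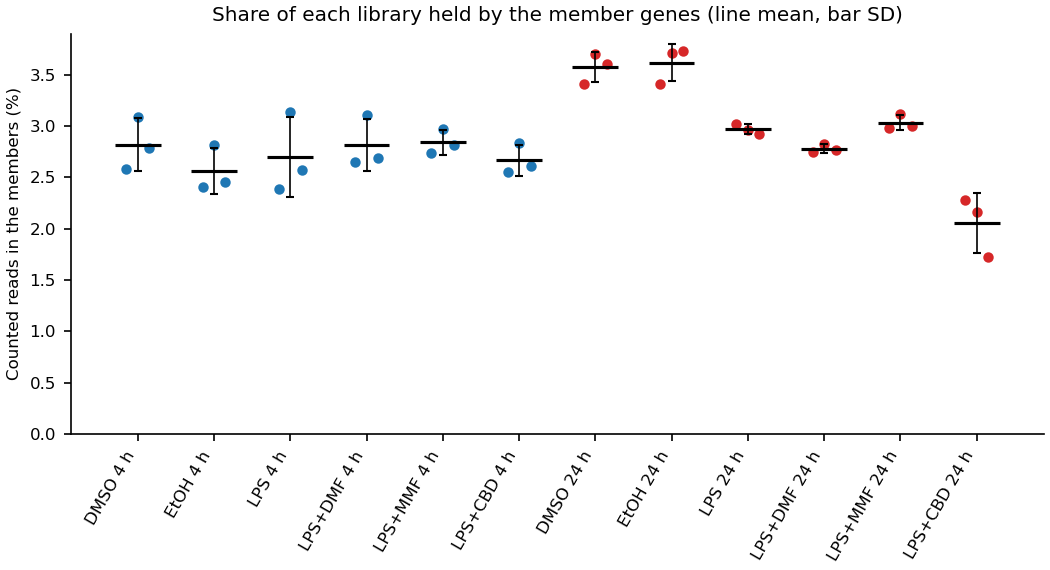
Share of counted reads held by the members (y axis, %) in each of the 36 libraries, by group (x axis). Points are libraries, lines the group means and bars the SD of 3. The 6 vehicle libraries at 24 h stand above all others, and the 3 of LPS+CBD at 24 h, at 2.06% ± 0.292 on average, below all others.

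**Figure D2:**
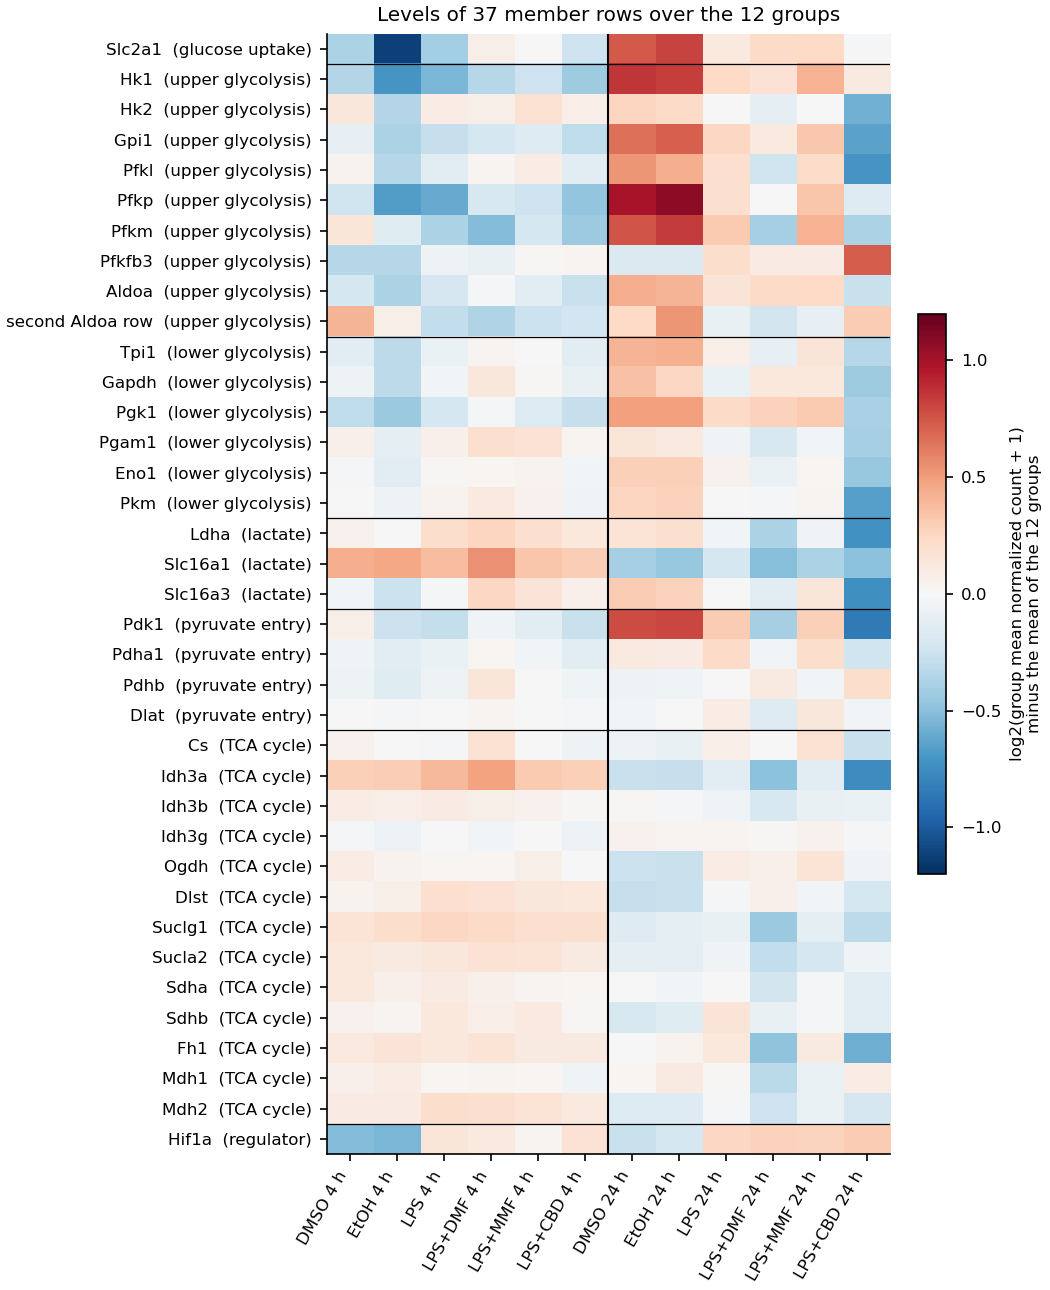
Level of 37 of the 38 member rows (y axis, with the role, without Ldhb) in the 12 groups (x axis), as log2(mean normalized count + 1) minus the mean of the 12 groups. Most glycolytic rows are red in both vehicles at 24 h and blue in LPS+CBD at 24 h, and most TCA rows are red at 4 h.

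The widest range over the groups was that of Slc2a1, whose highest group mean was 3.82 times its lowest. Pfkp followed with 3.34, Pdk1 with 3.14 and Hk1 (hexokinase 1) with 2.95. The flattest tested member was Idh3g, a subunit of isocitrate dehydrogenase, with 1.09. Slc2a1 was highest in the vehicles at 24 h (DMSO 16518, 19303 and 18249, EtOH 17123, 19181 and 20368) and lowest in EtOH at 4 h (4532, 6573 and 3747). Between these, the libraries of LPS+MMF, LPS+DMF, LPS and LPS+CBD at 24 h overlapped and their order cannot be read.

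**Figure D3:**
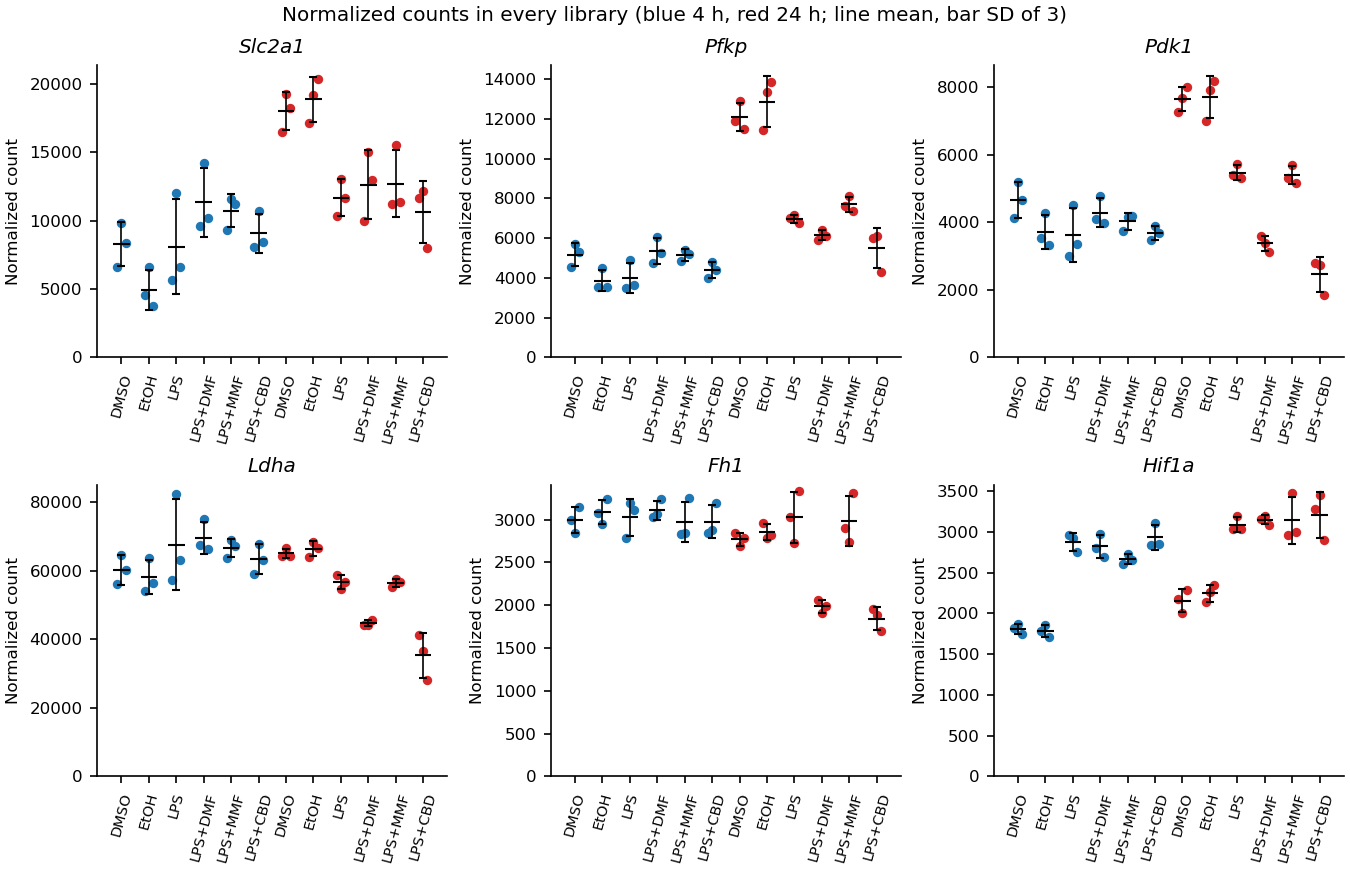
Normalized counts (y axes, from 0) of 6 members in every library of the 12 groups (x axes, blue 4 h, red 24 h). Lines are means and bars the SD of 3. Slc2a1, Pfkp and Pdk1 are highest in the vehicles at 24 h, Fh1 is lowest in LPS+DMF and LPS+CBD at 24 h, and Hif1a is lowest in the 4 vehicle groups.

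The first comparison concerned time. In the vehicles, glycolytic genes were higher at 24 h than at 4 h and TCA genes lower. In DMSO 14 of 37 tested members rose and 8 fell, and in EtOH 18 rose and 8 fell. Among all genes 25.7% were called higher and 25.8% lower in DMSO, and 29.1% and 29.5% in EtOH. The members called higher (37.8% and 48.6%) stood above this background, and those called lower (21.6% in both) lay near or below it. The rises took in 6 of 9 rows of upper glycolysis in DMSO and 7 in EtOH, 4 and 6 of 6 genes of lower glycolysis, and in both vehicles Slc2a1, Pdk1, Hif1a and the lactate exporter gene Slc16a3. The falls were 7 of 13 TCA genes in each vehicle (Idh3a, Ogdh, Dlst, Suclg1, Sucla2, Sdhb and Mdh2) and the lactate transporter gene Slc16a1.

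The rises were largest in uptake and upper glycolysis. Slc2a1 rose by 1.11 ± 0.12 on the log2 scale in DMSO (limma, adjusted p = 6.28e-05) and by 1.95 ± 0.16 in EtOH (adjusted p = 1.31e-05). Pfkp rose by 1.21 ± 0.087 and 1.72 ± 0.10, and Hk1 by 1.19 ± 0.10 and 1.52 ± 0.13. The median log2 change was 0.58 in DMSO and 0.77 in EtOH for upper glycolysis, -0.26 and -0.20 for the TCA genes, and 0.0011 and -0.0015 for all genes tested.

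The lactate transporters moved in opposite directions. Slc16a1 went from 6506, 5048 and 5529 normalized counts in DMSO at 4 h to 3373, 2899.8 and 3279 at 24 h, a log2 change of -0.86 ± 0.096 (adjusted p = 7.00e-05). Slc16a3 went from 4048, 4043 and 3950.2 to 4725, 5332 and 5208, a log2 change of 0.32 ± 0.064 (adjusted p = 0.00195). In neither did the libraries of both times overlap.

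With LPS fewer members were called higher with time. From 4 to 24 h 7 members rose and 5 fell in LPS alone (background 24.7% higher and 24.3% lower). In LPS+MMF 9 rose and 7 fell (25.1% and 24.3%), in LPS+DMF 3 and 13 (29.7% and 29.1%), and in LPS+CBD 4 and 16 (31.6% and 31.6%). The members called lower were 43.2% in LPS+CBD, above the background, and 35.1% in LPS+DMF, close to it. The shares called higher were below the background or close to it in all 4. Hk1 was called higher in all 6 treatments, and Idh3a, Slc16a1, Suclg1 and Mdh2 lower in all 6. Slc2a1 changed by 0.60 ± 0.23 in LPS alone, which did not pass (adjusted p = 0.0562). The difference in time course between LPS and the vehicles was not tested.

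These counts moved with single choices. In LPS alone 6 members were called without LPS 4 h replicate 3, and scaling by library totals gave 9 higher and 3 lower. In LPS+DMF that scaling gave 6 and 11, and removing the trend on GC content and transcript length gave 1 and 23. In LPS+MMF the removal gave 8 and 11. No share of all genes called in the same fit is set beside these alternative counts.

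The next comparison asked how LPS changed these genes. At 4 h Hif1a rose and few other members were called. Hif1a had 1823, 1865 and 1746 normalized counts in DMSO, 1781, 1853 and 1708 in EtOH and 2955, 2927 and 2751 in LPS. All 3 LPS libraries stood above all 6 vehicle libraries. The log2 change was 0.66 ± 0.065 against DMSO (limma, adjusted p = 0.000469) and 0.69 ± 0.062 against EtOH (adjusted p = 0.000451).

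Against DMSO at 4 h 1 member was called higher and 2 lower, against EtOH 1 higher and 0 lower. The background was 7.70% higher and 6.38% lower against DMSO and 5.69% and 4.48% against EtOH. The share of members called lower against DMSO (5.41%) was near it. The others rest on 0 or 1 member and lay below it. Of the falls against EtOH, edgeR called 0 and DESeq2 0, and 5 members in all had an unadjusted p below 0.05. The falls against DMSO were Pfkm, the muscle form of phosphofructokinase, and the second Aldoa row. Pfkm had 785, 866 and 876 normalized counts in DMSO and 583, 581 and 586 in LPS, without overlap, a log2 change of -0.53 ± 0.079 (adjusted p = 0.00347).

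The second Aldoa row had 60.2, 69.9 and 67.1 in DMSO and 43.2, 43.2 and 33.9 in LPS, again without overlap, a log2 change of -0.71 ± 0.19 (adjusted p = 0.0408). That call was lost without each of the 3 DMSO libraries and without LPS replicates 1 and 3 (limma, adjusted p = 0.0632 to 0.143), with no filter (0.0819) and with DESeq2 (0.0840). Slc2a1 had 5629, 12053 and 6637 in LPS at 4 h, 6628, 9823 and 8374 in DMSO and 4532, 6573 and 3747 in EtOH, with overlap. Its log2 change was -0.097 ± 0.26 against DMSO (limma, adjusted p = 0.835) and 0.67 ± 0.29 against EtOH (adjusted p = 0.197). The fit over all 36 libraries called the latter (adjusted p = 0.0396). LPS replicate 2 was the highest of its group in 16 of 19 tested rows of glucose uptake, glycolysis and lactate. In each of the 6 groups at 4 h the library of the middle number (5 in the vehicles, 2 with LPS) had the highest share of reads in the members, from 2.82% in EtOH to 3.14% in LPS. Without LPS replicate 2 7 members were called against DMSO (1 higher, 6 lower) and 2 against EtOH. Scaling by library totals gave 1 higher and 4 lower against DMSO.

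At 24 h glycolytic genes were lower in LPS than in either vehicle, while Hif1a and both listed genes of the 2-oxoglutarate dehydrogenase complex were higher. Against DMSO 4 of 37 members were called higher and 10 lower, and against EtOH 3 and 11. The background was 12.1% higher and 10.6% lower against DMSO and 10.8% and 9.72% against EtOH. The members called lower (27.0% and 29.7%) stood above it, and those called higher (10.8% and 8.11%) did not. The falls in both were Slc2a1, Hk1, Gpi1, Pfkl, Pfkp, Pfkm, Tpi1, Gapdh, Slc16a3 and Pdk1, to which EtOH added the second Aldoa row. No TCA gene was called lower in either.

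The largest falls lay in uptake and upper glycolysis. Pfkp, the platelet form of phosphofructokinase, had 11912, 12891 and 11499.5 normalized counts in DMSO, 11426, 13335 and 13869 in EtOH and 7033, 7152 and 6741 in LPS. The LPS libraries lay below all vehicle libraries, with a log2 change of -0.78 ± 0.073 against DMSO (limma, adjusted p = 3.33e-05) and -0.87 ± 0.088 against EtOH (adjusted p = 4.46e-05). Slc2a1 had 10345, 13081 and 11632 in LPS, below every vehicle library at 24 h given above. Its log2 change was -0.61 ± 0.099 against DMSO (adjusted p = 0.00115) and -0.69 ± 0.10 against EtOH (adjusted p = 0.000697). Hk1, which phosphorylates glucose, had 5351, 6477 and 6045 in DMSO and 3537, 4302 and 3814 in LPS, without overlap, a log2 change of -0.60 ± 0.095 (adjusted p = 0.000990). The second Aldoa row had 73.0, 74.98 and 66.8 in EtOH and 54.0, 44.9 and 39.7 in LPS, without overlap, a log2 change of -0.62 ± 0.19 (adjusted p = 0.0407).

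Among the rises Hif1a led. It had 2176, 2002 and 2292 normalized counts in DMSO, 2137, 2256 and 2346 in EtOH and 3034, 3194 and 3033 in LPS. LPS did not overlap with either, and the log2 change was 0.53 ± 0.072 against DMSO (limma, adjusted p = 0.000394) and 0.47 ± 0.073 against EtOH (adjusted p = 0.000844). Ogdh, the first subunit of 2-oxoglutarate dehydrogenase, had 2163, 2343 and 2061 in DMSO, 2173, 2318 and 2032 in EtOH and 2682, 2793 and 2871 in LPS, without overlap. It rose by 0.36 ± 0.073 against DMSO (adjusted p = 0.00478) and 0.37 ± 0.075 against EtOH (adjusted p = 0.00524). Its partner subunit Dlst had 3147, 2965 and 2979.8 in EtOH and 3435, 3579 and 3826 in LPS, a log2 change of 0.26 ± 0.071 (adjusted p = 0.0229). Pfkfb3, whose product makes an activator of phosphofructokinase, had 691, 767 and 748 in DMSO and 798, 1157 and 912 in LPS, a log2 change of 0.38 ± 0.12 (adjusted p = 0.0492). Neither of these last pairs overlapped.

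The smaller calls were lost when any of several libraries was left out. That of Pfkfb3 was lost without any 1 DMSO library and without LPS replicates 2 and 3 (limma, adjusted p = 0.0900 to 0.128). That of Dlst against EtOH was lost without EtOH replicates 5 and 6 and without LPS replicate 3 (0.0722 to 0.121). That of the second Aldoa row was lost without any 1 EtOH library, without LPS replicates 2 and 3 (0.0685 to 0.154), with no filter (0.0866) and with DESeq2 (0.0745). The count of members called against DMSO was 9 without DMSO replicate 5, and that against EtOH was 7 without EtOH replicate 5, without EtOH replicate 6 or without LPS replicate 3.

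**Figure D4:**
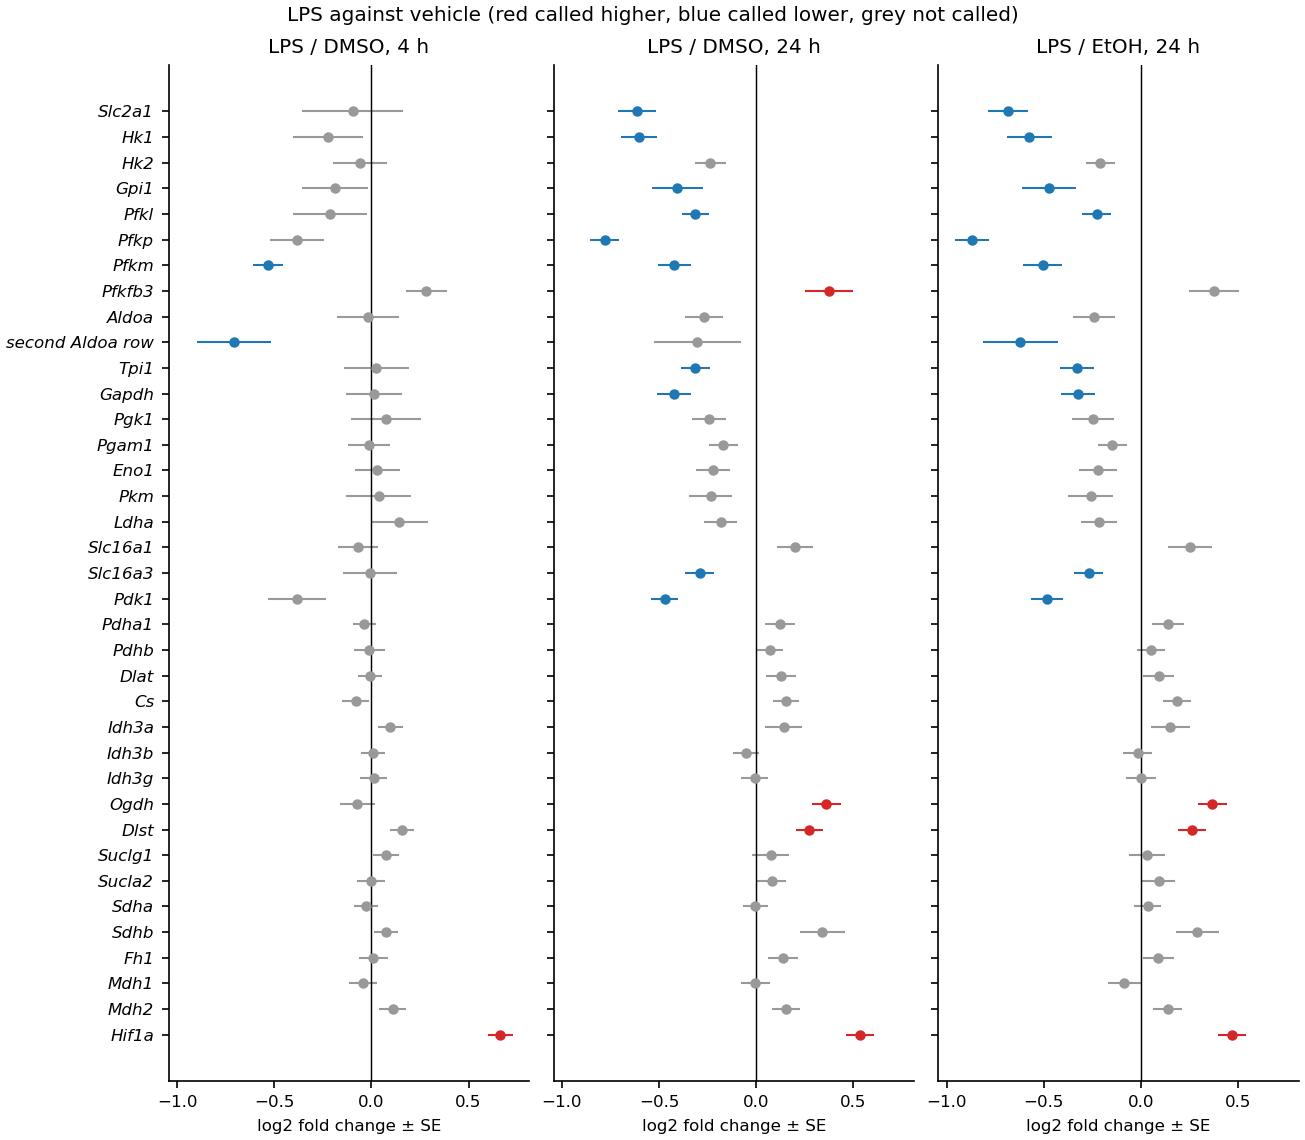
log2 fold change with its SE (x axes) of 37 member rows (y axis) in LPS against DMSO at 4 h and 24 h and against EtOH at 24 h. Red points were called higher, blue lower and grey not called. Hif1a is red in all 3 panels, and Pfkp lies at -0.78 and -0.87 at 24 h.

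Other genes of these pathways were grouped in lists by function. At 4 h the itaconate-forming enzyme gene Acod1 rose by 3.81 ± 0.27 against DMSO and 3.69 ± 0.31 against EtOH, the 1 call among 23 other TCA and shuttle genes in each. At 24 h 6 of these rose and 1 fell against DMSO, from Acod1 (3.07 ± 0.21) to the malic enzyme gene Me2 (-0.64 ± 0.076). Of 17 other genes of glucose transport and glycolysis 5 rose and 3 fell at 24 h against DMSO, from the hexose transporter gene Slc2a6 (0.64 ± 0.078) to Pgam2 (-0.90 ± 0.18). Of 9 of lactate and pyruvate entry 0 rose and 2 fell, led by Pdpr (-0.49 ± 0.083). Of 3 tested genes of the Mondo and Myc list Txnip, an inhibitor of glucose uptake, fell (-0.42 ± 0.081). The median log2 changes were 0.14 for the TCA and shuttle list, 0.014 for glucose transport and glycolysis and -0.14 for lactate and pyruvate entry. Of all genes 12.1% rose and 10.6% fell.

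Against EtOH at 24 h, where 10.8% of all genes rose and 9.72% fell, 5 of 23 TCA and shuttle genes rose and 1 fell, from Acod1 (3.40 ± 0.16) to Me2 (-0.70 ± 0.095). Of 17 of glucose transport and glycolysis 5 rose and 3 fell, from Slc2a6 (0.77 ± 0.088) to the enolase gene Eno2 (-0.86 ± 0.17). Of 9 of lactate and pyruvate entry 0 rose and 3 fell, led by Pdpr (-0.46 ± 0.085). In the Mondo and Myc list Mlxip rose (0.29 ± 0.095) and Txnip fell (-0.37 ± 0.077). The medians were 0.11, -0.13 and -0.049 for the first 3 lists, so that the median of glucose transport and glycolysis had the other sign than against DMSO.

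Most other hypoxia-response genes were lower in LPS at 24 h as well. Of 19 tested, 14 fell and 0 rose in LPS against DMSO at 24 h, led by Adm, the adrenomedullin gene (-1.76 ± 0.13), and 14 of 18 fell against EtOH (Adm -2.02 ± 0.17), when 10.6% and 9.72% of all genes fell. Their median log2 change was -0.89 against DMSO and -0.81 against EtOH, with 0.0056 and 0.0092 for all genes. From 4 to 24 h, 14 of 19 rose in DMSO and 16 in EtOH, with 0 falling, and Adm led in both (2.10 ± 0.33 and 4.14 ± 0.46). In LPS alone 9 of 18 rose and 1 fell with time. The shares of all genes that rose with time were 25.7% in DMSO, 29.1% in EtOH and 24.7% in LPS. The comparisons of time and of LPS share the vehicle libraries of 24 h.

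With CBD at 24 h many glycolytic genes fell. Of 37 members 2 were called higher and 19 lower in LPS+CBD against LPS. All genes moved widely here, with 23.9% called higher and 24.8% lower, and the members called lower (51.4%) stood above that background. The median log2 change of the members was -0.35, against -0.0019 for all genes tested. By role 6 of 9 rows of upper glycolysis, 5 of 6 genes of lower glycolysis, all 3 tested lactate genes, 2 of 4 pyruvate entry genes and 3 of 13 TCA genes fell. Slc2a1, Hk1 and Hif1a were not called. The count of called members ranged from 14 to 21 without single libraries and from 18 to 26 under the other alternatives. The members held 1.72% of the reads in LPS+CBD replicate 3, against 2.28% in replicate 1 and 2.16% in replicate 2.

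Pdk1 fell most. It had 5389, 5716 and 5305 normalized counts in LPS and 2789.6, 2735 and 1851 in LPS+CBD, without overlap and with replicate 3 lowest. The log2 change was -1.17 ± 0.14 (limma, adjusted p = 0.000167), a 2.25-fold lower level. Pfkl, the liver form of phosphofructokinase, had 7553, 6916 and 7238 in LPS and 4572, 4077 and 2929 in LPS+CBD, a log2 change of -0.93 ± 0.14 (adjusted p = 0.000656). Gpi1, which encodes glucose-6-phosphate isomerase, had 45740.1, 63175 and 50208 in LPS and 30488, 34598 and 21138 in LPS+CBD, a log2 change of -0.90 ± 0.19 (adjusted p = 0.00340). In both genes the groups did not overlap, and LPS+CBD replicate 3 was lowest. The other falls among glycolysis and lactate genes were Slc16a3, Pfkm, Ldha, Pkm, Pgk1, Hk2, Eno1, Tpi1, Aldoa, Pfkp, Pgam1 and Slc16a1, with log2 changes from -0.75 to -0.27. Those among pyruvate entry and TCA genes, beside Pdk1, were Fh1, Idh3a, Pdha1 and Cs.

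Fh1 had 3026, 2733 and 3329 normalized counts in LPS and 1951, 1881 and 1697 in LPS+CBD. The groups did not overlap, and the log2 change was -0.71 ± 0.094 (limma, adjusted p = 0.000274). Gapdh had 2530.4, 3128 and 2876 in LPS and 2411, 2614 and 1682 in LPS+CBD, with overlap, and its log2 change of -0.36 ± 0.15 did not pass (adjusted p = 0.0727). It passed with the replicate block, which pairs libraries of the same number (adjusted p = 0.0138), in the fit over all libraries (0.0191) and without LPS+CBD replicate 2 (0.0188).

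The rises were Pfkfb3 and Pdhb, a subunit of pyruvate dehydrogenase. Pfkfb3 went from 798, 1157 and 912 in LPS to 1272, 1528 and 1321 in LPS+CBD, without overlap, a log2 change of 0.54 ± 0.13 (limma, adjusted p = 0.00769). Pdhb had 1999.8, 1856 and 2046 in LPS and 2358, 2145 and 2365 in LPS+CBD, without overlap, a log2 change of 0.22 ± 0.078 (adjusted p = 0.0397). The call of Pdhb was lost without each LPS library and without LPS+CBD replicates 1 and 3 (limma, adjusted p = 0.0594 to 0.123), with no filter (0.0553) and with the trend on GC content and length removed (0.152).

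Among all genes 23.9% rose and 24.8% fell with CBD at 24 h, and several of the following list counts lie near these shares. Of the other genes of these pathways, 2 of 17 of glucose transport and glycolysis rose and 6 fell with CBD at 24 h, from the hexokinase gene Hk3 (1.42 ± 0.088) to the aldolase gene Aldoc (-1.14 ± 0.19). Of 23 TCA and shuttle genes 3 rose and 12 fell, from Got1 (0.56 ± 0.098) to the aspartate-glutamate carrier gene Slc25a13 (-1.39 ± 0.12). Of 9 of lactate and pyruvate entry 3 rose, led by the pyruvate carrier gene Mpc1 (0.78 ± 0.15), and 3 fell, led by Bsg, which encodes the chaperone of the lactate transporters (-0.71 ± 0.10). Of 18 hypoxia-response genes 2 rose, led by Arnt (0.52 ± 0.11), and 7 fell, led by Ankrd37 (-1.73 ± 0.38). Txnip was the 1 of 3 tested genes of the Mondo and Myc list that fell (-0.34 ± 0.12). The median log2 changes were -0.045 for glucose transport and glycolysis, -0.23 for TCA and shuttle, -0.13 for lactate and pyruvate entry and -0.25 for hypoxia response.

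At 4 h CBD gave no call among the members, with 0 of 37 by limma, edgeR and DESeq2 and 0 at an unadjusted p below 0.05. The background was 0.00875% higher and 0% lower, 1 gene in all. Fh1 had 2848, 2878 and 3195 normalized counts in LPS+CBD and 2782, 3189 and 3113 in LPS, a log2 change of -0.018 ± 0.077 (limma, adjusted p = 0.998). Gapdh had 2591, 3080.1 and 2808 in LPS+CBD and 2411, 3508 and 2889 in LPS, a log2 change of -0.034 ± 0.13 (adjusted p = 0.998). The groups overlapped in both.

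**Figure D5:**
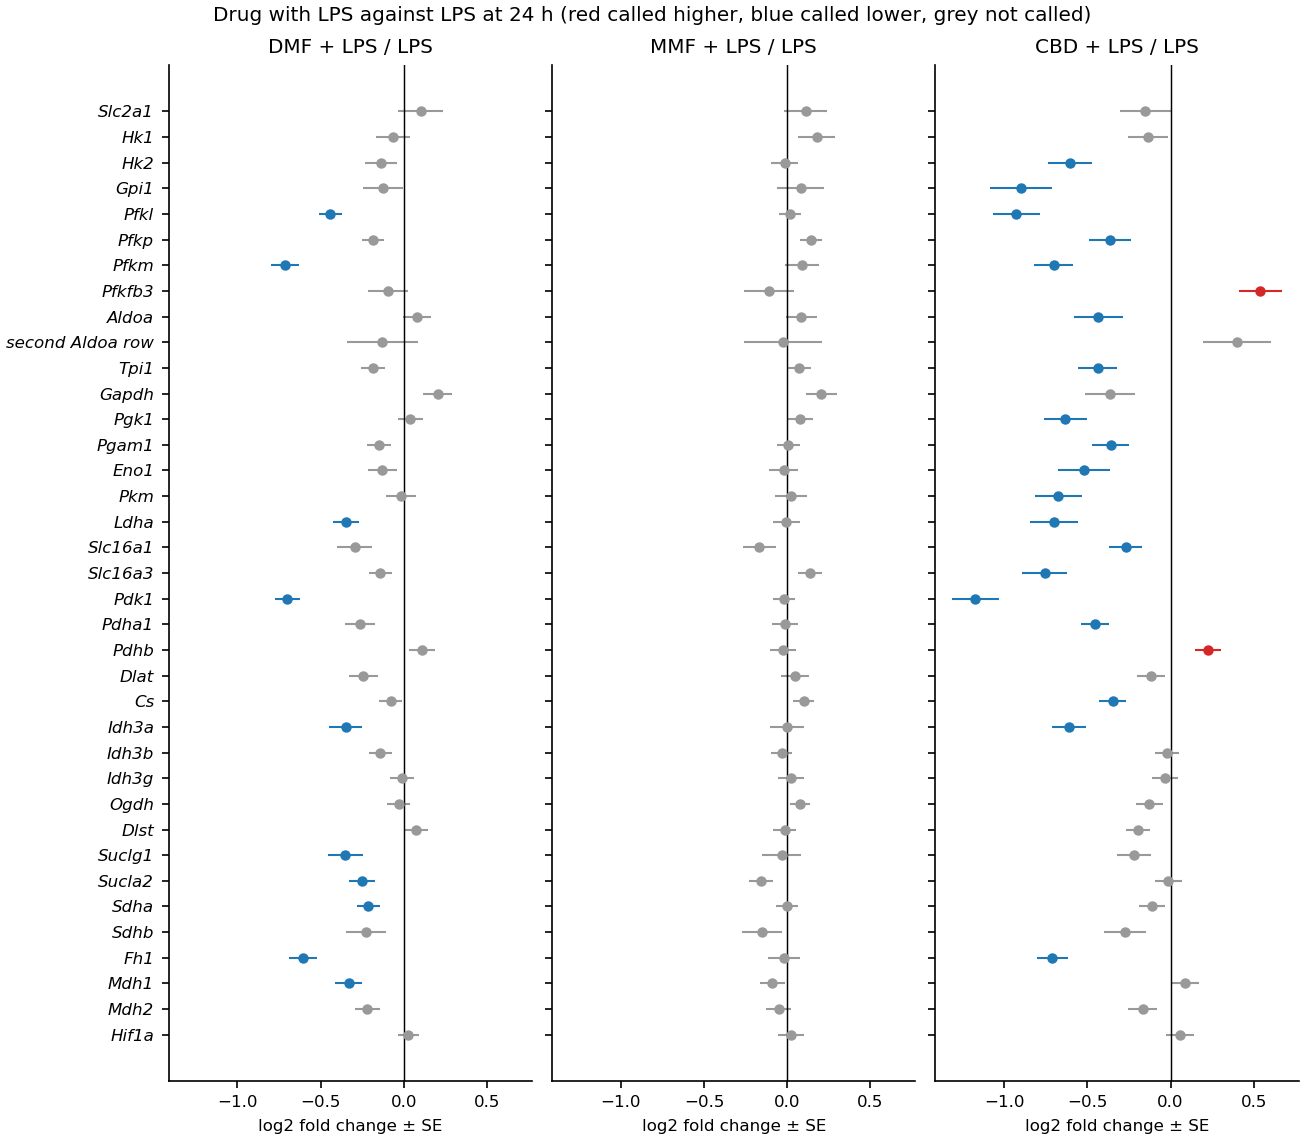
log2 fold change with its SE (x axes) of 37 member rows (y axis) for each drug with LPS against LPS alone at 24 h. Red points were called higher, blue lower and grey not called. With DMF 10 rows are blue, with MMF all are grey, and with CBD 19 are blue and 2 red.

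With DMF 10 members fell at 24 h, and 6 of them were TCA genes. Of 37 members 0 were called higher and 10 lower in LPS+DMF against LPS. The background was 11.9% higher and 13.2% lower, and the members called lower were 27.0%. They were Fh1, Suclg1, Idh3a, Mdh1, Sucla2 and Sdha of the TCA cycle, Pfkm and Pfkl, Ldha and Pdk1. The median log2 change of the members was -0.14, against -0.0071 for all genes tested.

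Pfkm had 929.9, 1015 and 902 normalized counts in LPS and 609, 582 and 546 in LPS+DMF, a log2 change of -0.71 ± 0.084 (limma, adjusted p = 0.000475). Pdk1 had 3592, 3393 and 3135 in LPS+DMF, below the 5389, 5716 and 5305 in LPS, a log2 change of -0.70 ± 0.073 (adjusted p = 0.000237). Fh1, whose product acts on fumarate, had 2059, 1907 and 1991 in LPS+DMF and 3026, 2733 and 3329 in LPS, a log2 change of -0.61 ± 0.085 (adjusted p = 0.00110). In all 3 genes the groups did not overlap. Gapdh had 3020.3, 3536 and 3259.5 in LPS+DMF and overlapped with LPS. Its log2 change of 0.20 ± 0.088 did not pass (adjusted p = 0.118), but did with the replicate block (0.0114) and without LPS replicate 2 (0.0389).

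The replicate numbers paired the libraries here, and with the block 18 members were called, 1 higher and 17 lower, when 39.1% of all genes were called. In fits with no block, leaving out LPS replicate 1 gave 6 calls, replicate 2 gave 16 and replicate 3 gave 5. Leaving out LPS+DMF replicate 2 gave 5, and replicate 3 gave 4.

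Against 11.9% of all genes higher and 13.2% lower, 1 of 17 other genes of glucose transport and glycolysis rose with DMF at 24 h (Hk3, 0.30 ± 0.066) and 2 fell, led by Slc2a8 (-0.72 ± 0.096). Of 23 TCA and shuttle genes 1 rose, Acod1 (0.63 ± 0.19), and 10 fell, led by Acly, the ATP-citrate lyase gene (-0.86 ± 0.078). Of 9 of lactate and pyruvate entry 1 rose (Dld, 0.24 ± 0.070) and 4 fell, led by Pdp2 (-0.53 ± 0.080). Of 18 hypoxia-response genes 0 rose and 3 fell, led by Bnip3 (-0.64 ± 0.11), and Txnip rose (0.40 ± 0.074). The median log2 changes of these 4 lists, in the order given, were -0.17, -0.19, -0.077 and -0.22.

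At 4 h no member was called with DMF, with 0 of 37 by limma, edgeR and DESeq2 and 2 at an unadjusted p below 0.05, while 4.55% of all genes were called higher and 6.51% lower. With the replicate block, which paired these libraries, 2 members were called, both higher, and 4 were called when LPS replicate 2 was left out, all higher. Removing the trend on GC content and length gave 1, and adding the block to that gave 11, all higher. The shares of all genes called in these fits are not given here, so these counts are not read as a result about the members. Fh1 had 3027, 3066 and 3238 normalized counts in LPS+DMF and 2782, 3189 and 3113 in LPS, with overlap, a log2 change of 0.037 ± 0.084 (limma, adjusted p = 0.841). Gapdh had 2866, 3598 and 3466 and 2411, 3508 and 2889, with overlap, a log2 change of 0.18 ± 0.14 (adjusted p = 0.504, and 0.0369 with trend removal and block together). Outside the members Slc2a6 fell (-1.25 ± 0.084), the pyruvate carboxylase gene Pcx rose (0.83 ± 0.094), and Txnip fell (-0.57 ± 0.092).

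MMF, at the same concentration, gave no call at either time. At 24 h 0 of 37 members were called by limma, edgeR and DESeq2, 0 had an unadjusted p below 0.05, and 0% of all genes were called higher and 0% lower. Pdk1 had 5316, 5711 and 5178 normalized counts in LPS+MMF, and the 95% interval of its log2 change ran from -0.17 to 0.13. Fh1 had 2903, 2743 and 3313, with a log2 change of -0.021 ± 0.097 (limma, adjusted p = 0.9995) and an interval of -0.24 to 0.20. Pfkm had 1050.3, 1127 and 869, with an interval of -0.14 to 0.32. Gapdh had 3153, 3613 and 3050.3 in LPS+MMF, with a log2 change of 0.20 ± 0.093 (adjusted p = 0.9995). It was the 1 member called with the replicate block, in which the numbers paired the libraries (adjusted p = 0.0393). All 4 genes overlapped between the groups.

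At 4 h 0 members were called with MMF by limma, edgeR and DESeq2, 1 had an unadjusted p below 0.05, and the background was 0.0787% higher and 0.0437% lower. Fh1 had 2833, 2839 and 3248 normalized counts in LPS+MMF and a log2 change of -0.021 ± 0.087 (limma, adjusted p = 0.982). Gapdh had 2780.3, 3199.9 and 3113 and a log2 change of 0.066 ± 0.13 (adjusted p = 0.948). Both overlapped with LPS. When LPS replicate 2 was left out 2 members were called, both higher.

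DMF is the dimethyl and MMF the monomethyl ester of fumaric acid. Both were given at 30 µM with the same vehicle, and they were compared directly as the 1 pair of related compounds. At 24 h 0 members were called higher and 13 lower in LPS+DMF than in LPS+MMF. The background was 10.1% higher and 11.4% lower, below the 35.1% of members called lower. These were Pfkm, Pdk1, Fh1, Pfkl, Idh3a, Ldha, Pfkp, Dlat, Slc16a3, Tpi1, Pdha1, Mdh1 and Sdha. Fh1 was lower with DMF, at a log2 difference of -0.59 ± 0.081 (limma, adjusted p = 0.00164). Pdk1 differed by -0.68 ± 0.069 (adjusted p = 0.000419) and Pfkm by -0.80 ± 0.099 (adjusted p = 0.00101). All 3 LPS+DMF libraries lay below all 3 LPS+MMF libraries in each of these genes. Gapdh differed by -0.0012 ± 0.081 (adjusted p = 0.994), with an interval of -0.18 to 0.18, and for Hif1a the interval was -0.15 to 0.16.

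With the replicate block, which paired these libraries, 20 members were called at 24 h, 1 higher and 19 lower, when 39.8% of all genes were called. Without the block the count was 8 without LPS+MMF replicate 1, 6 without LPS+MMF replicate 3, 7 without LPS+DMF replicate 2 and 6 without LPS+DMF replicate 3.

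Outside the members, with 10.1% of all genes higher and 11.4% lower with DMF, 1 of 17 genes of glucose transport and glycolysis was higher (Hk3, 0.24 ± 0.062) and 4 lower, led by Slc2a8 (-0.72 ± 0.091). Of 23 TCA and shuttle genes 0 were higher and 11 lower, led by Acly (-0.82 ± 0.074). Of 9 of lactate and pyruvate entry 1 was higher (Dld, 0.28 ± 0.068) and 3 lower, led by Pcx (-0.61 ± 0.065). Of 18 hypoxia-response genes 0 were higher and 3 lower, led by Bnip3 (-0.83 ± 0.11), and Txnip was higher (0.53 ± 0.063).

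At 4 h 0 members differed between the esters by limma, edgeR and DESeq2, with 1 at an unadjusted p below 0.05, against 3.37% of all genes higher and 4.97% lower with DMF. The log2 difference of Fh1 was 0.061 ± 0.086 (limma, adjusted p = 0.710, interval -0.13 to 0.25). That of Gapdh was 0.12 ± 0.11 (adjusted p = 0.549, interval -0.12 to 0.35), and for Pdk1 the interval was -0.14 to 0.30.

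Whether a drug effect differed between the times was tested as an interaction, on recovered reads of 12 libraries scaled together. For DMF the log2 effect was more negative at 24 h than at 4 h in 6 members (16.2%) and more positive in 0. The background was 7.89% and 8.45%. The 6 members were Pdk1, Fh1, Pfkp, Pfkm, Slc16a1 and Pdha1. For CBD the effect was more negative in 12 members (32.4%) and more positive in 0, at a background of 16.7% and 15.4%. These were Pdk1, Pfkl, Gpi1, Slc16a3, Fh1, Pfkm, Ldha, Hk2, Pgk1, Idh3a, Pdha1 and Cs. Pdk1 had the largest difference, -1.23 ± 0.22 for CBD (limma, adjusted p = 0.000897) and -0.96 ± 0.18 for DMF (adjusted p = 0.00229). For MMF 0 members were called by limma, edgeR and DESeq2, 0 had an unadjusted p below 0.05, and 0% of all genes were higher and 0% lower.

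The count for DMF was 13 with the replicate block, 10 without LPS 4 h replicate 2, and 3 without LPS 4 h replicate 3 or without LPS+DMF 24 h replicate 3. That for CBD was 19 without LPS 4 h replicate 2 and 7 without LPS 4 h replicate 3 or without LPS+CBD 24 h replicate 3.

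DMF, MMF and CBD were each compared with the same LPS libraries, so their effects share those controls. Side by side, the log2 changes at 24 h with DMF, MMF and CBD were -0.70, -0.019 and -1.17 for Pdk1. They were -0.61, -0.021 and -0.71 for Fh1 and -0.71, 0.090 and -0.70 for Pfkm. For Ldha they were -0.35, -0.0068 and -0.70. In these 4 genes the values with DMF and CBD were called and those with MMF were not. For Gpi1 they were -0.12, 0.081 and -0.90, of which that with CBD was called. CBD was given at another concentration and in another vehicle than the esters, so no order of the drugs is drawn.

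The vehicles were compared as a control. At 4 h 0 members were called by limma and edgeR and 2 by DESeq2, with 10 at an unadjusted p below 0.05, and 0% of all genes were called higher and 0% lower in DMSO. With the replicate block, which paired these libraries, 15 members were called, all higher in DMSO, when 7.65% of all genes were called. Slc2a1 had 6628, 9823 and 8374 normalized counts in DMSO and 4532, 6573 and 3747 in EtOH, higher in DMSO within each of the 3 numbers, a log2 difference of 0.77 ± 0.20 (limma, adjusted p = 0.369 without the block). At 24 h 0 members were called by limma, edgeR and DESeq2, with 0 at an unadjusted p below 0.05, and 0% of all genes were higher and 0.00854% lower, 1 gene in all.

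In build GRCm39, as the deposited tables place them, Slc2a1 lies at chr4:118965908-118995180, Hk1 at chr10:62104634-62215687, Gpi1 at chr7:33900755-33929761, Pfkl at chr10:77822781-77845917, Pfkp at chr13:6629804-6698813 and Pfkm at chr15:97990470-98030332. Ldha lies at chr7:46490899-46505051, Pdk1 at chr2:71703568-71734202, Fh1 at chr1:175427940-175453201, Gapdh at chr6:125138678-125143430 and Hif1a at chr12:73948149-73994304. All are protein-coding genes in these tables.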

How the data were processed

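RNA-seq of 36 poly(A) libraries of BV-2 cells was deposited as 30 tables, each for a pair of groups. According to the study's methods and the labels' processing notes, reads were checked with FastQC 0.12.1, trimmed (cutadapt 4.4, Trimmomatic 0.39), aligned to GRCm39 with HISAT2 2.2.1, counted with HTSeq 2.0.3 on Ensembl genes and tested with DESeq2 1.40.2 in R 4.3.1. The strand setting is not given in the sources used here. The authors deposited, per library, a normalized signal: gene counts divided by the DESeq2 size factor of that pair. Columns with the authors' own comparisons (fold changes, standard errors, p-values, direction, mean) were not used.

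Whole reads were recovered from the steps of these values (100% within 0.01 reads, in all 36 libraries) and scaled by 1 joint set of size factors for levels. Of 188 member calls, 0 changed sign on that scale. The main test was limma 3.58.1 in R 4.3.3 (trend, two-sided) on log2(normalized count + 1) of the 6 libraries of a pair, for genes at 10 or more in at least 3 of them, with Benjamini-Hochberg adjustment over all genes tested and a threshold of 0.05. Interactions used recovered reads of 12 libraries. Intervals are 95% and unadjusted. Alternatives were a pseudocount of 10, no filter, edgeR 4.0.16 and DESeq2 1.42.0 on the recovered reads, scaling by totals, 1 fit over 36 libraries, the replicate block, removal of a GC and length trend, and leaving out each library. The fits were tested on simulated data. Replicate numbers were taken to pair libraries where the correlation of the deviations of every pair, over 10096 genes, was over 0.1, in 10 of 16 comparisons. In no group did libraries agree within sampling noise (chi-square per degree of freedom 4.83 to 31.0).

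Members and lists were chosen with earlier results of these data known. Genes with values by library were, in each comparison with LPS or of LPS, the 3 called members of largest rise and fall, with Gapdh and Fh1 for the drugs and Hif1a and Slc2a1 for LPS. Others with such values, such as the lactate transporters over time and Slc2a1 between the vehicles, were chosen after their values were seen. Promoters are from RefSeq (GRCm38.p6). Overlaps and copies come from GENCODE vM39. Some listed genes are not reported here.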

Additional observations from a re-analysis of the deposited data

Results flagged for a closer look

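In 18 cases the effect of a drug on a member differed between 24 h and 4 h in the test of that difference itself (limma on 12 libraries, adjusted over all genes), given here as the log2 effect at 24 h minus that at 4 h. For DMF these were Pdk1 (-0.96), Fh1 (-0.65), Pfkp (-0.61), Pfkm (-0.57), Slc16a1 (-0.48) and Pdha1 (-0.36). For CBD they were Pdk1 (-1.23), Pfkl (-0.97), Gpi1 (-0.88), Slc16a3 (-0.85), Fh1 (-0.69), Pfkm (-0.65), Ldha (-0.63), Hk2 (-0.61), Pgk1 (-0.59), Idh3a (-0.51), Pdha1 (-0.41) and Cs (-0.31). All 18 values were negative: the log2 effect of the drug, relative to LPS alone at the same time, was more negative at 24 h than at 4 h. This does not mean a weaker effect. With 3 libraries a group, no outlier test over the libraries of a group was run. Leaving out 1 library moved the count of such members from 6 to between 3 and 10 for DMF and from 12 to between 7 and 19 for CBD.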

How the results depend on the processing

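Of 349 alternative counts of called members, 297 lay within 1.5 times the main count and 52 did not. The cause of the changes was not tested. Alternative counts given without a share of all genes were not set against a background and are not read as results about the members. With library totals LPS against DMSO at 4 h gave 5 calls. In 1 fit over 36 libraries the counts were 6 for LPS against DMSO at 4 h, 3 for LPS against EtOH at 4 h, 3 for DMF at 4 h and 2 for DMF against MMF at 4 h, and the split at 24 h was 5 higher and 7 lower for LPS against DMSO and 6 and 8 against EtOH. DESeq2 gave 2 for DMSO against EtOH at 4 h and 10 for the DMF interaction. With the GC and length trend removed, an alternative chosen after seeing the data, LPS against EtOH at 4 h gave 2, DMF at 4 h 1 and the DMF interaction 11.

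The replicate block gave 2 for DMF at 4 h, 18 for DMF at 24 h, 1 each for MMF at 4 h and 24 h, 1 and 20 for DMF against MMF at 4 h and 24 h, 15 for DMSO against EtOH at 4 h and 13 for the DMF interaction. The block together with trend removal gave 11, 19, 1, 1, 3, 20, 14 and 19 in that order, with 25 for the time course in LPS+DMF and 19 for the CBD interaction. Elsewhere the block moved no count by over 1.5 times. The numbers did not pair the libraries in MMF against LPS and DMF against MMF at 4 h or in 4 of the 6 time courses, where at least 1 of the 3 correlations was 0.1 or lower. The labels number the LPS groups 1 to 3 and the vehicle groups 4 to 6 and do not tie these numbers to each other, so LPS against vehicle was fitted without a block.

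Without single libraries the count ranged from 2 to 7 (LPS against DMSO, 4 h), 1 to 2 (LPS against EtOH, 4 h), 9 to 17 (LPS against DMSO, 24 h), 7 to 16 (LPS against EtOH, 24 h), 0 to 4 (DMF, 4 h), 4 to 16 (DMF, 24 h), 0 to 2 (MMF, 4 h), 6 to 15 (DMF against MMF, 24 h), 6 to 15 (time in LPS), 3 to 10 (DMF interaction) and 7 to 19 (CBD interaction). Of 579 alternatives of 41 values of named genes, 538 kept direction and call, 30 lost the call (23 of them without a library), 11 gained it and 0 reversed. With 3 libraries a group, small changes may go uncalled.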
